A study of Homo sapiens with 5 samples.

Results

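The aminoacyl-tRNA synthetases examined here are 39 of the 26364 genes in the deposited tables: 20 cytosolic enzymes, 16 mitochondrial enzymes (symbols ending in 2) and the 3 scaffold subunits AIMP1, AIMP2 and EEF1E1. They were chosen by name, as the synthetases and complex subunits of both compartments, and not by their values. All 39 were found under their older symbols (AARS, now AARS1, and so on). Of these, 38 passed the filter on low counts and were tested among 10005 genes; the mitochondrial prolyl enzyme PARS2, counted 5 to 8 times in each library, was not.

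Each aminoacyl-tRNA synthetase couples an amino acid to the tRNAs that read its codons, and the loaded tRNA then delivers that amino acid to the ribosome. Human cells carry one set in the cytosol and a second, mostly encoded by separate nuclear genes, in mitochondria. GARS and KARS serve both compartments, EPRS joins the glutamyl and prolyl activities in one chain, FARSA and FARSB form one phenylalanyl enzyme, and several cytosolic enzymes sit on a scaffold called the multisynthetase complex. When an amino acid is short, uncharged tRNA activates the kinase GCN2 (EIF2AK4), translation of the transcription factor ATF4 goes up, and many cytosolic synthetase genes are known targets of ATF4. WARS, the tryptophanyl enzyme, is also known as an interferon-gamma-inducible gene.

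RNA was sequenced in 5 libraries of tumours grown from HT-29, an established human colon cancer cell line, implanted under the skin of the back of female NOD SCID mice, an immunodeficient strain that has no T or B cells. The mice were 5 weeks old when obtained and the HT-29 cells of every group had been cultured in complete medium. The 4 diets were normal food (1 library), food lacking methionine (2 libraries), food lacking tryptophan and niacin (1 library) and food lacking methionine, tryptophan and niacin, called the combined omission here (1 library). The design text gives 2 weeks of rearing on the diets and elsewhere speaks of a 3-week experiment, and it says that bedding was changed daily to limit intake of amino acids from excreta. All tumours come from 1 cell line. Nothing in the labels ties the methionine-free pair to separate mice, nor says how many mice gave each library. All p-values therefore reflect only how far these samples differ from each other, and that spread may be technical. With 1 library on each of the other diets, the methionine-free pair is the only source of replicate spread.

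Totals ran from 433930 to 1088084 counts per library, so 1 count was worth 0.927 to 2.31 CPM (counts scaled to a common library size after TMM normalization), and a count of 0 would have allowed 2.78 to 6.94 CPM (3 counts; counting error only). All 14 colon epithelium markers were detected, at a summed 14463 to 17781 CPM. Among markers of other cells, the macrophage genes CSF1R, CD163 and MRC1 were at 0 throughout (3 of 6 genes; the summed 2059 to 3781 CPM was 98.3% LYZ), 4 of 7 fibroblast markers and 3 of 5 endothelial markers were at 0 (highest sums 20.7 and 48.6 CPM), and 8 skeletal muscle genes (CKM and TTN at 0) summed to 67.0 CPM in the tryptophan/niacin-free library against 1.62 to 2.31 CPM elsewhere. The nuclear RNAs NEAT1 and MALAT1 summed to 1460 CPM in the normal library, 627 and 230 CPM in the methionine-free pair, 779 CPM without tryptophan and niacin and 1198 CPM in the combined omission. The normal and combined libraries carry a different style of title from the other 3, so diet and handling cannot be told apart across those styles. In bulk tumour RNA, fewer cells of a type and less RNA per cell cannot be told apart, and mouse transcripts can be counted under human symbols.

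The promoters of 7 cytosolic genes held the letters TGATGNAA, the core of the composite element that ATF4 and C/EBP factors are known to bind. They are shown because AARS, MARS and CARS recur in the results. RefSeq promoter windows (GRCh38.p14, 250 bases before to 50 after the start site) were found for 33 of the 39 genes; DARS, LARS, VARS, YARS, AARS2 and VARS2 had none. Both strands were searched. Each line gives 30 bases on the gene's own strand, 5′ to 3′, with the matched letters in capitals; where these read TTNCATCA the match lies on the opposite strand.
AARS, chr16:70289675-70289704, minus strand: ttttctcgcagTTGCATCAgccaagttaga
CARS, chr11:3057407-3057436, minus strand: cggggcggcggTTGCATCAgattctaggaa
GARS, chr7:30594834-30594863, plus strand: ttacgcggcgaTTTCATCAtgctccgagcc
IARS, chr9:92293692-92293721, minus strand: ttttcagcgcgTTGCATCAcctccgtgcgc
MARS, chr12:57488053-57488082, plus strand: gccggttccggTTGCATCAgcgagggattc
NARS, chr18:57621804-57621833, minus strand: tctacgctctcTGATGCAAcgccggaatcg
TARS, chr5:33440956-33440985, plus strand: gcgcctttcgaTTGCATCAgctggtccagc
YARS2, chr12:32756076-32756105, minus strand: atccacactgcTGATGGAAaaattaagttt

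Of genes with at least 1 window, the letters were present in 7 of 16 cytosolic (43.8%), 1 of 14 mitochondrial (YARS2) and 0 of 3 scaffold genes, against 4.46% of 27305 genes. Some genes have several windows, and CARS, GARS and TARS each have a second window without the letters. Counted by window, 7 of 21 cytosolic, 1 of 18 mitochondrial and 0 of 6 scaffold windows held them, against 3.62% of 35116 windows of the same length. A match is a description of the letters, not a measured binding site.

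Cytosolic synthetases were counted at nearly the same summed level on every diet. Their 20 genes made up 0.287% of the normal library (95% Wilson interval 0.277% to 0.297%), 0.271% and 0.269% of the methionine-free pair, 0.274% of the tryptophan/niacin-free library and 0.272% of the combined omission. The normal library was the highest by this share, and its interval overlapped each of the others. In TMM-scaled CPM the second methionine-free library had the highest sum, at 2953 CPM against 2893 CPM in the normal library. The 16 mitochondrial genes made up 0.0640%, 0.0679%, 0.0616%, 0.0704% and 0.0588% in the same order. Cytosolic counts exceeded mitochondrial counts 4.48-fold in the normal library, 3.98-fold and 4.37-fold in the methionine-free pair, 3.88-fold without tryptophan and niacin and 4.63-fold in the combined omission, again with overlapping 95% intervals. The 3 scaffold genes made up 0.0115% to 0.0128%.

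**Figure D1:**
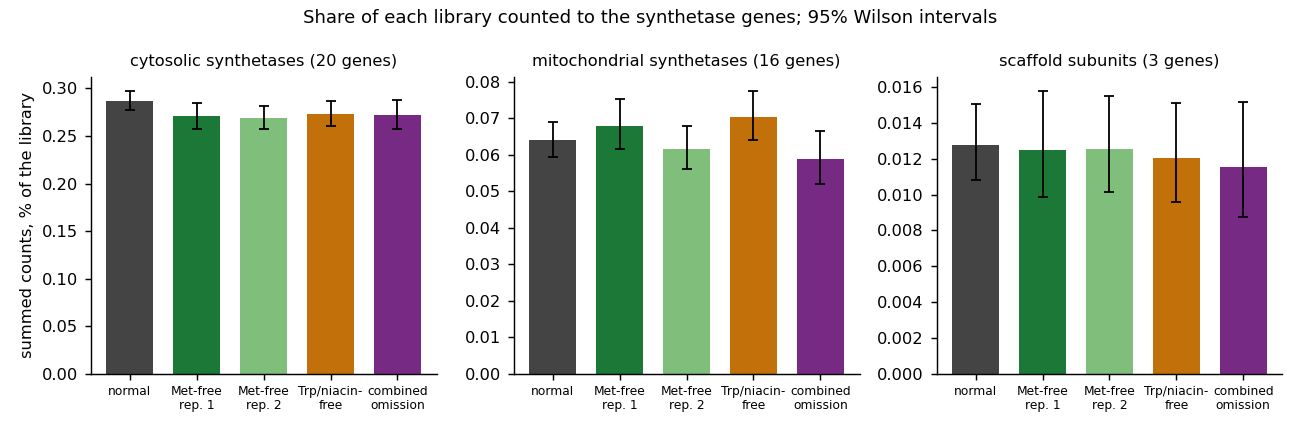
Summed counts of the cytosolic, mitochondrial and scaffold genes as a percent of all counts (vertical axis, from 0; 1 bar per library, error bars 95% Wilson intervals, counting error only). The cytosolic bars lie between 0.269% and 0.287% and the mitochondrial bars between 0.0588% and 0.0704%.

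Divided by transcript length, the cytosolic levels averaged over the 5 libraries ran from 21.3 CPM per kb (FARSB, the beta subunit of the phenylalanyl enzyme) to 93.5 CPM per kb (KARS, the lysyl enzyme), with a median of 41.9. The mitochondrial levels ran from 4.13 CPM per kb (LARS2) to 46.0 CPM per kb (IARS2), with a median of 12.1. Of 16 pairs of a cytosolic gene and its mitochondrial counterpart, 15 had the cytosolic gene higher per kb in all 5 libraries, and for 11 the 95% counting interval of the ratio lay above 1 in every library. The interval included 1 in at least 1 library for EPRS against EARS2, HARS against HARS2, IARS against IARS2 and RARS against RARS2. The exception in direction was CARS against CARS2, the cysteinyl pair, whose ratio was 1.55 in the normal library, 1.06 and 0.818 in the methionine-free pair, 1.61 without tryptophan and niacin and 1.25 in the combined omission. The 95% counting interval of the low ratio, 0.475 to 1.42, included 1.

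The cytosolic enzymes of the omitted amino acids, MARS for methionine and WARS for tryptophan, did not pass the test in any comparison, and their values on the 4 diets lay close together. MARS, which also charges the initiator tRNA in the cytosol, stood at 113 CPM in the normal library, 106 and 118 CPM in the methionine-free pair, 95.8 CPM without tryptophan and niacin and 129.6 CPM in the combined omission. The normal value lay between those of the pair. The edgeR log2 fold change of MARS without methionine against normal food was -0.01 (95% interval -0.81 to 0.79, adjusted p = 0.997). Averaged over both tryptophan/niacin states, the effect of omitting methionine on MARS was 0.17 on the log2 scale (-0.44 to 0.78), and that of omitting tryptophan and niacin was 0.01 (-0.61 to 0.63), whose sign turned with the length correction and without the first methionine-free library. The length correction also turned the sign of the MARS value without methionine against normal.

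WARS stood at 67.7 CPM in the normal library, 76.7 and 87.4 CPM in the methionine-free pair, 73.4 CPM without tryptophan and niacin and 78.7 CPM in the combined omission. Normal food gave the lowest of the 5 values. The edgeR log2 fold change was 0.28 without methionine against normal food (95% interval -0.53 to 1.09, adjusted p = 0.925) and 0.02 for the omission of tryptophan and niacin averaged over methionine (-0.62 to 0.66), the latter with a turned sign without the first methionine-free library. In the single tryptophan/niacin-free library, the WARS count ratio to normal was 1.08 (95% exact conditional interval 0.733 to 1.59, counting error only). Of 10 tested interferon gamma genes, 0 passed the edgeR test in the same comparison of methionine-free with normal food; 9 lay above 0, with a median log2 fold change of 0.87, and their part in the WARS value was not tested.

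MARS2 and WARS2 are the mitochondrial counterparts, MARS2 supplying the methionyl-tRNA from which mitochondria also make their formylated initiator. MARS2 was counted 14 times in the normal library, 18 and 14 times in the methionine-free pair, 22 times without tryptophan and niacin and 4 times in the combined omission, that is 13.0, 32.9, 22.7, 35.1 and 9.25 CPM. All 3 libraries of a single omission were above the normal value, and the combined omission was below it. The edgeR log2 fold change of MARS2 without methionine against normal food was 1.08 (SE 0.60, adjusted p = 0.717). The interaction, meaning the extra change in the combined omission beyond the sum of both single omissions, was -2.98 on the log2 scale (SE 1.04), the lowest of all 38 members, with an edgeR unadjusted p of 0.00414 and an adjusted p of 0.326 that did not pass. Each value here rests on at most 22 counts. The interaction sets the normal and combined libraries against those of a single omission. That is also the split by title style, so diet and handling cannot be told apart in it.

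WARS2 stood at 22.2 CPM in the normal library, 11.0 and 22.7 CPM in the methionine-free pair, 25.5 CPM without tryptophan and niacin and 27.8 CPM in the combined omission. The first of the pair was the lowest of the 5 libraries and the second lay beside the normal value, and the edgeR log2 fold change against normal was -0.38 (SE 0.59, adjusted p = 0.929). The MARS to MARS2 ratio per kb was 9.06 in the normal library, 3.35 and 5.42 in the methionine-free pair, 2.83 without tryptophan and niacin and 14.5 in the combined omission. The interval of the tryptophan/niacin-free library (95% counting interval 1.71 to 4.85) overlapped neither that of the normal library (5.20 to 17.1) nor that of the combined omission (5.38 to 55.3), while WARS to WARS2 ratios of 2.82 to 6.98 overlapped throughout.

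**Figure D2:**
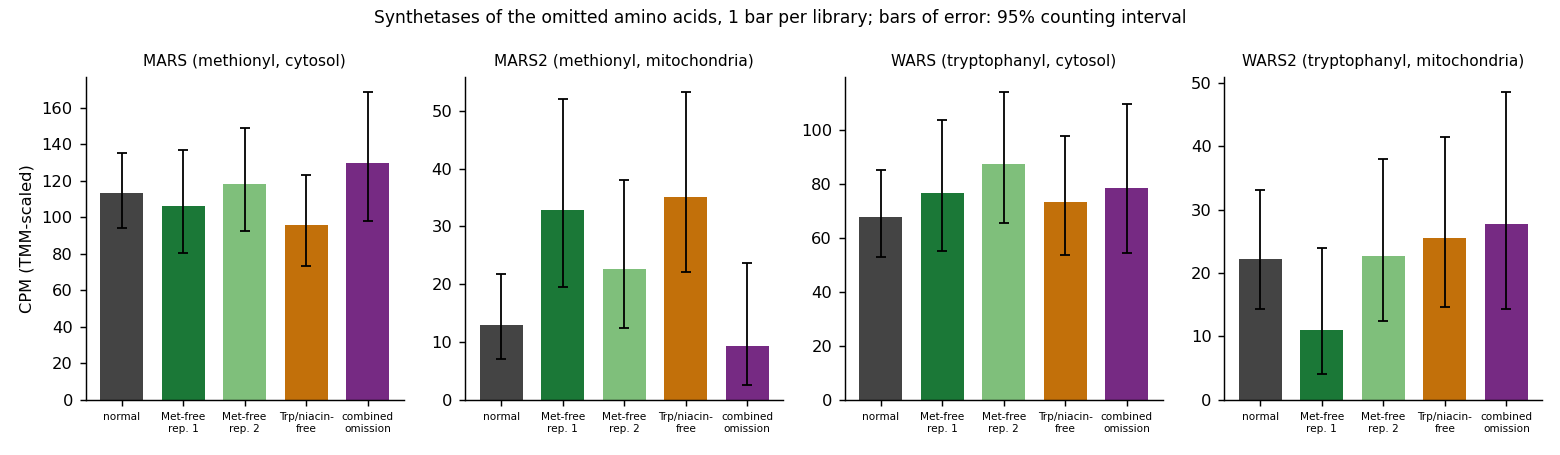
CPM of the methionyl and tryptophanyl synthetases of cytosol and mitochondria (vertical axes from 0 and different in each panel; 1 bar per library, error bars 95% counting intervals). MARS and WARS intervals overlap across all 5 libraries, while MARS2 runs from 9.25 CPM in the combined omission to 35.1 CPM in the tryptophan/niacin-free library.

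No member passed the edgeR test in methionine-free against normal food, the one comparison of a replicated diet with the normal library: 0 of 38 members, against 0.23% of all genes tested. At an unadjusted p under 0.05, 3 members were lower (AARS, AARS2 and TARS2) and 0 higher, against 7.68% of all genes. With limma-voom 2 members and with DESeq2 0 members reached that unadjusted level, and both tools called 0 after adjustment. The cytosolic median log2 fold change was -0.01 with 9 of 20 above 0, the mitochondrial median 0.15 with 9 of 15 above 0, and that of all genes 0.00 with 50.3% above 0. Recomputed on the log2 CPM scale, the cytosolic median moved from -0.01 to 0.12 without the first methionine-free library and to -0.09 without the second, and the mitochondrial median from 0.15 to 0.23 and 0.10.

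AARS, the cytosolic alanyl enzyme, stood at 200.2 CPM in the normal library, 119 and 102 CPM in the methionine-free pair, 150.0 CPM without tryptophan and niacin and 171 CPM in the combined omission. Normal food was the highest and the methionine-free pair the lowest of the 5. Its edgeR log2 fold change without methionine against normal was -0.86 (SE 0.41, adjusted p = 0.622). AARS2, which charges alanine in mitochondria, stood at 50.1 CPM in the normal library, 29.2 and 22.7 CPM in the methionine-free pair, 33.5 CPM without tryptophan and niacin and 25.4 CPM in the combined omission, with a log2 fold change of -0.95 (SE 0.48, edgeR adjusted p = 0.64). For AARS2, too, the normal library was the highest. The mitochondrial threonyl gene TARS2 stood at 46.3 CPM in the normal library, 27.4 and 17.8 CPM in the methionine-free pair, 28.7 CPM without tryptophan and niacin and 27.8 CPM in the combined omission, with a log2 fold change of -1.04 (SE 0.50, edgeR adjusted p = 0.624). Its normal value was the highest. The 95% counting interval of that value, 34.4 to 61.1 CPM, lay above that of the second methionine-free library (8.89 to 31.8 CPM) and overlapped the rest. All these differences from normal rest on the same single normal library.

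The other cytosolic enzymes at the low end were CARS, VARS and EPRS. CARS, the cysteinyl enzyme, stood at 100.1 CPM in the normal library, 78.6 and 51.8 CPM in the methionine-free pair, 89.4 CPM without tryptophan and niacin and 87.9 CPM in the combined omission; the pair itself differed by 0.57 on the log2 scale, close to the edgeR log2 fold change of -0.63 (adjusted p = 0.773). VARS, the valyl enzyme, stood at 202 CPM in the normal library, 170 and 160.2 CPM in the methionine-free pair, 148 CPM without tryptophan and niacin and 159.6 CPM in the combined omission. EPRS stood at 210.4 CPM in the normal library, 181 and 172 CPM in the methionine-free pair, 199.5 CPM without tryptophan and niacin and 187 CPM in the combined omission. Normal food gave the highest value for each of these 3 genes. The threonyl gene TARS was also highest on normal food, at 208 CPM in the normal library. It stood at 174 and 199 CPM in the methionine-free pair, 201 CPM without tryptophan and niacin and 185 CPM in the combined omission.

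At the high end stood RARS and KARS, both enzymes of the multisynthetase complex. RARS, the arginyl enzyme, was at 77.9 CPM in the normal library, 109.6 and 126 CPM in the methionine-free pair, 113 CPM without tryptophan and niacin and 64.8 CPM in the combined omission. The 3 libraries of a single omission lay above the normal library and the combined omission below it. Its interaction was -1.40 on the log2 scale (SE 0.67, edgeR adjusted p = 0.713), and its log2 fold change without methionine against normal was 0.60 (adjusted p = 0.79). KARS was at 168 CPM in the normal library, 223 and 270.2 CPM in the methionine-free pair, 184 CPM without tryptophan and niacin and 189.7 CPM in the combined omission, with a log2 fold change of 0.56 (SE 0.44, edgeR adjusted p = 0.833). The methionine-free pair held its 2 highest values. SARS, the seryl enzyme, was at 143 CPM in the normal library, 157 and 184 CPM in the methionine-free pair, 163 CPM without tryptophan and niacin and 120.3 CPM in the combined omission.

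Of the 16 cytosolic genes with a promoter window, the 7 with the TGATGNAA letters had a median log2 difference of -0.16 without methionine against normal, with 6 below 0 (NARS above), and the 9 without them a median of 0.23, with 7 above 0. This split was made after the values were seen and was not tested. The same medians were -0.16 and 0.11 without tryptophan and niacin against normal, and -0.13 and -0.15 in the combined omission against normal, all 3 comparisons sharing the normal library. In the methionine-free comparison 77 of 78 ribosomal protein genes also lay above 0 (median log2 fold change 0.57) and NEAT1 and MALAT1 passed the edgeR test as lower, and the part of these in the members' values was not tested.

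**Figure D3:**
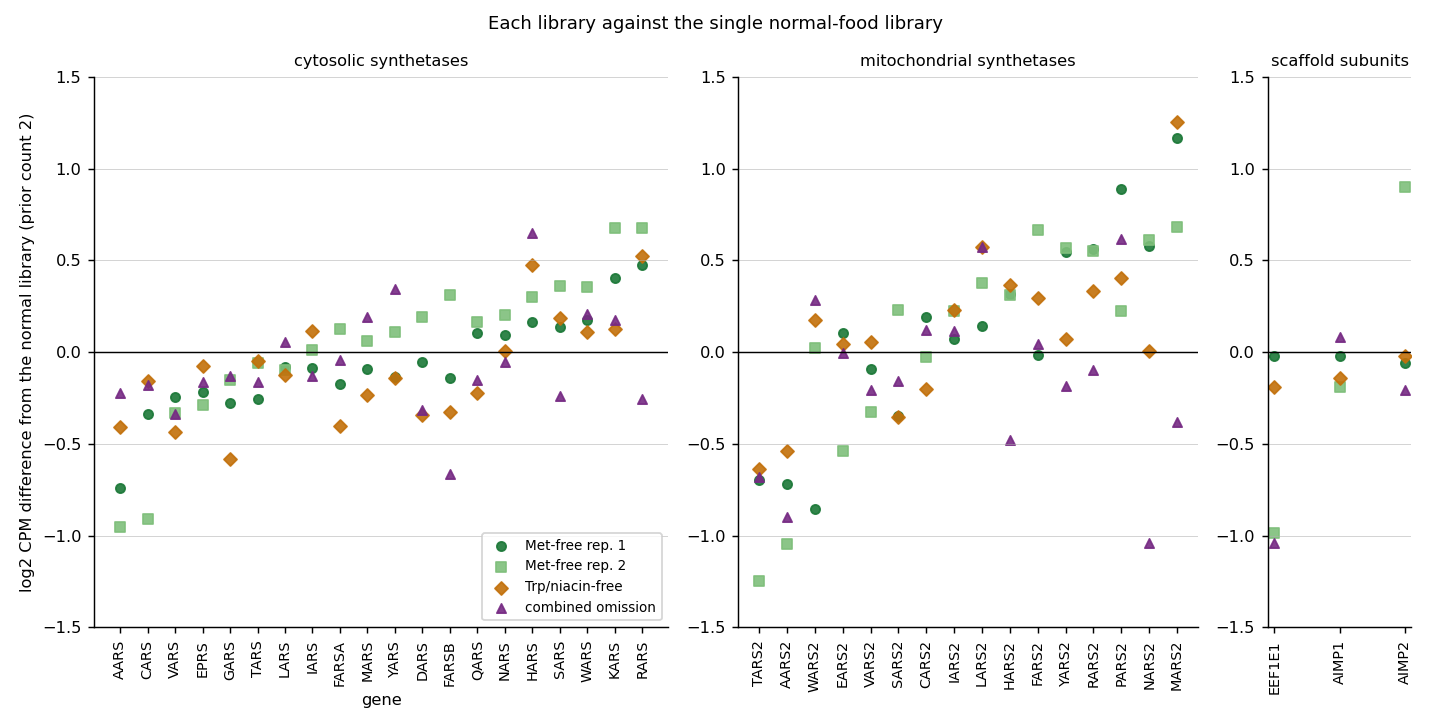
Log2 CPM difference of each gene from the single normal library (vertical axis; genes along the horizontal axis, ordered by the mean of the methionine-free pair, 1 symbol per library). All symbols share that 1 normal library. AARS, AARS2 and TARS2 lie below 0 in every library, as do CARS, EPRS, GARS, TARS, VARS and EEF1E1. MARS2 spreads from below 0 to above 1.

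Among the mitochondrial genes, NARS2, RARS2 and YARS2 were highest in the methionine-free pair. NARS2, the asparaginyl gene, was at 22.2 CPM in the normal library, 34.7 and 35.6 CPM in the methionine-free pair, 22.3 CPM without tryptophan and niacin and 9.25 CPM in the combined omission, the last from 4 counts. In combined omission against methionine-free food, its edgeR log2 fold change was -1.90 (SE 0.77, unadjusted p = 0.0139, adjusted p = 0.56). That was the smallest adjusted p among the members in that comparison, in which 0 of 38 passed, against 0.03% of all genes. At an unadjusted p under 0.05, edgeR put NARS2 alone there (7.57% of all genes), and limma-voom and DESeq2 0 members. RARS2, the arginyl gene, was at 39.9 CPM in the normal library, 60.3 and 59.9 CPM in the methionine-free pair, 51.1 CPM without tryptophan and niacin and 37.0 CPM in the combined omission. YARS2, the tyrosyl gene, was at 24.1 CPM in the normal library, 36.5 and 37.2 CPM in the methionine-free pair, 25.5 CPM without tryptophan and niacin and 20.8 CPM in the combined omission. For both, the values of the pair were close together and the combined omission was the lowest of the 5, but their edgeR log2 fold changes against normal, 0.59 and 0.61, did not pass (adjusted p = 0.822 and 0.844).

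The leucyl gene LARS2 was at 13.0 CPM in the normal library, 14.6 and 17.8 CPM in the methionine-free pair, 20.7 CPM without tryptophan and niacin and 20.8 CPM in the combined omission. VARS2, the valyl gene, was at 35.2 CPM in the normal library, 32.9 and 27.5 CPM in the methionine-free pair, 36.7 CPM without tryptophan and niacin and 30.1 CPM in the combined omission. Neither gene moved by 2-fold between any 2 libraries. Across the 16 mitochondrial genes the highest library exceeded the lowest by 1.18-fold (IARS2) to 3.85-fold (NARS2), with a median of 1.78-fold; across the 20 cytosolic genes the range was 1.14-fold (LARS) to 2.03-fold (FARSB), with a median of 1.44-fold. Counts per library had a median of 19.5 in the mitochondrial and 82.5 in the cytosolic set, so counting error differs between them too, and its part in these ranges was not tested.

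The scaffold subunits hold the multisynthetase complex together. AIMP1 was the steadiest, at 74.2 CPM in the normal library, 73.1 and 64.7 CPM in the methionine-free pair, 67.0 CPM without tryptophan and niacin and 78.7 CPM in the combined omission. AIMP2 was at 32.4 CPM in the normal library, 31.1 and 63.1 CPM in the methionine-free pair, 31.9 CPM without tryptophan and niacin and 27.8 CPM in the combined omission. The second methionine-free library stood apart from the other 4, and its count ratio to the first was 2.03 (95% exact conditional interval 1.12 to 3.83, counting error only). EEF1E1, also called AIMP3, was at 22.2 CPM in the normal library, 21.9 and 9.71 CPM in the methionine-free pair, 19.2 CPM without tryptophan and niacin and 9.25 CPM in the combined omission. The last value rests on 4 counts and the 9.71 CPM on 6.5 counts. The second methionine-free library and the combined omission were the low ones, so the pair was split and the diets overlap. The edgeR log2 fold changes without methionine against normal were -0.11, 0.55 and -0.51 for AIMP1, AIMP2 and EEF1E1, and none passed (adjusted p = 0.98, 0.844 and 0.9). The 8 enzymes of the complex had a median log2 fold change of 0.03 in that comparison and the 12 enzymes outside it -0.01.

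The interaction of both omissions called 0 of 38 members with edgeR, against 0.43% of all genes. At an unadjusted p under 0.05, 2 members were lower (MARS2 and RARS), as with limma-voom, against 6.45% of all genes, and DESeq2 gave 0. The mitochondrial median of the interaction was -0.27 with 6 of 15 above 0, the cytosolic median -0.01 with 10 of 20 above 0, and the median of all genes -0.02. The interaction follows the split by title style, so diet and handling cannot be told apart in any of its values, those of MARS2 and RARS included. Tryptophan/niacin-free against methionine-free food called 0 of 38 members (0% of all genes), with edgeR adjusted p-values of at least 0.992 and 0 members at an unadjusted p under 0.05 with edgeR, limma-voom or DESeq2, against 4.91% of all genes. All 6 tested comparisons use the methionine-free pair and so are not independent.

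**Figure D4:**
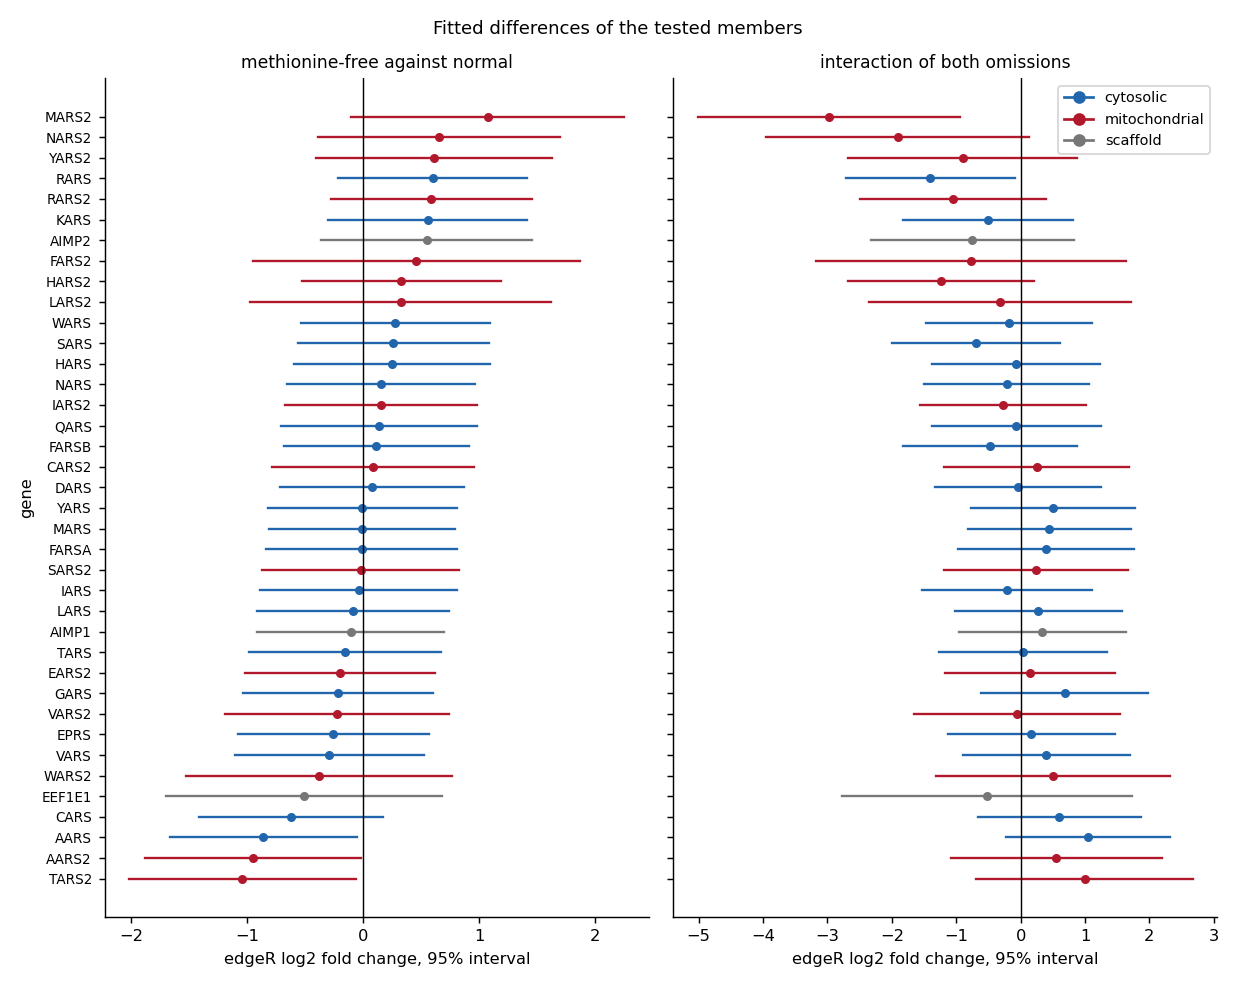
Fitted edgeR log2 fold changes (points) with 95% intervals (lines) of the 38 tested members, without methionine against normal on the left and the interaction of both omissions on the right. Both panels list genes in the order of the left one and colours mark the compartment. The right panel follows the split by title style, so diet and handling cannot be told apart in it. Intervals exclude 0 for AARS, AARS2 and TARS2 on the left and for MARS2 and RARS on the right, with no adjusted p past the threshold.

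Averaged over the other omission, neither the loss of methionine nor that of tryptophan and niacin called any member with edgeR: 0 of 38 for each (0% of all genes for each), with 0 members at an unadjusted p under 0.05 with edgeR, limma-voom or DESeq2, against 1.73% and 1.63% of all genes. For methionine the lowest members were AARS2 at -0.76 (SE 0.35), TARS2 at -0.69 (SE 0.39) and EEF1E1 at -0.67 (SE 0.51) on the log2 scale. The highest was KARS at 0.34. For tryptophan and niacin the range ran from NARS2 at -0.81 (SE 0.50) to LARS2 at 0.51. Within the cytosolic set it ran from FARSB at -0.58, which stood at 78.8 CPM in the normal library, 71.3 and 98.7 CPM in the methionine-free pair, 62.2 CPM without tryptophan and niacin and 48.6 CPM in the combined omission, to the histidyl enzyme HARS at 0.46. HARS was at 51.9 CPM in the normal library, 58.5 and 64.7 CPM in the methionine-free pair, 73.4 CPM without tryptophan and niacin and 83.3 CPM in the combined omission. HARS and its neighbouring gene HARS2 both carried decimal counts in the same 4 libraries, so reads may be split between them and both are uncertain. In all, 11 members carried a decimal count in some library, MARS and WARS2 among them.

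The aspartyl, glutaminyl and tyrosyl enzymes completed the ends of these rankings. DARS was at 110.3 CPM in the normal library, 106 and 126 CPM in the methionine-free pair, 86.2 CPM without tryptophan and niacin and 87.9 CPM in the combined omission. QARS was at 219 CPM in the normal library, 236 and 246 CPM in the methionine-free pair, 187 CPM without tryptophan and niacin and 197 CPM in the combined omission. For DARS and QARS, both libraries without tryptophan and niacin were below the other 3, with averaged edgeR log2 fold changes of -0.38 and -0.26 that did not pass. YARS was at 129 CPM in the normal library, 117 and 139 CPM in the methionine-free pair, 117 CPM without tryptophan and niacin and 164 CPM in the combined omission.

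Comparisons between diets with 1 library each have no replicate check. A difference was counted there when it reached 2-fold on the log2(CPM) scale with a prior count of 2 and its 95% exact conditional interval excluded a ratio of 1. Without tryptophan and niacin against normal, 1 of 38 members met this rule (3.52% of all genes): MARS2, higher, with a count ratio of 2.71 (1.32 to 5.72). In the combined omission against normal 0 of 38 met it (2.02% of all genes). In the combined omission against the tryptophan/niacin-free diet 1 of 38 met it (4.04% of all genes): MARS2, lower, with a ratio of 0.264 (0.066 to 0.776). Between the methionine-free replicates, where no diet differs, 0 of 38 members met it, against 6.6% of all genes. Smaller differences with an interval excluding 1 were seen without tryptophan and niacin against normal for 4 cytosolic genes: the glycyl enzyme GARS at a ratio of 0.662 (0.507 to 0.856), VARS at 0.734 (0.57 to 0.94), AARS at 0.749 (0.582 to 0.959) and, in the other direction, RARS at 1.46 (1.05 to 2.02). With MARS2 that made 5 of 38 members, against 1400 of all 10005 genes tested. Between the methionine-free replicates such an interval was seen for 1 of 38 members (AIMP2), against 20.7% of all genes. In the combined omission against normal there were 2 of 38 (8.14% of all genes), HARS at 1.60 (1.03 to 2.48) and AARS2 at 0.508 (0.24 to 0.983). In the combined omission against the tryptophan/niacin-free diet there were 4 of 38 (11.0% of all genes): MARS2, RARS at 0.572 (0.355 to 0.897), GARS at 1.38 and YARS at 1.41, the last 2 with a lower bound just above 1.

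Among other genes of tRNA charging and the amino acid response, 0 of 15 tested accessory genes (tRNA processing, export and editing) passed edgeR in any of the 6 tested comparisons. Of 25 tested amino acid response genes, 0 passed in methionine-free against normal food (median log2 fold change -0.29, 6 above 0). In the interaction 2 of 25 were higher (0.42% of all genes were called higher): DDIT4, an inhibitor of mTORC1 signalling (log2 3.47, SE 0.69, edgeR adjusted p = 0.000386), and DDIT3, which encodes the stress factor CHOP (log2 3.04, SE 0.81, edgeR adjusted p = 0.0443). Because the interaction follows the split by title style, diet and handling cannot be told apart for either gene. By the 2-fold rule for single libraries, 0 of the 25 were higher or lower in the combined omission against normal (2.02% of all genes). Without tryptophan and niacin against normal, 0 were higher and 5 lower, against 101 and 251 of all 10005 genes tested. Of the 13 cytosolic synthetases known as ATF4 targets, a list drawn up after the values were seen, 9 had an interaction above 0 (median 0.27), from -0.70 for SARS to 1.05 for AARS on the log2 scale, and 0 passed with edgeR. Of the other 7 cytosolic synthetases, 1 had an interaction above 0 (median -0.07), against 49.1% of all genes. Against normal food most of the 13 were below 0 on each diet. Those above 0 were 3 without methionine (median -0.09), 4 without tryptophan and niacin (median -0.13) and 4 in the combined omission (median -0.13). For the other 7, those above 0 were 6 (median 0.14), 3 (median -0.23) and 2 (median -0.15) in the same order. Of all 10005 genes tested, 5033, 4928 and 4847 lay above 0.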

How the data were processed

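The authors deposited, for each library, a table of gene symbols with expected counts: estimates, of which 15.2% to 17.6% of those above 0 were not whole. The labels' protocols name the TruSeq stranded mRNA kit. Per the submitters' processing notes, hg19 was the build, and the tools were Subread 2.0.0, featureCounts, SAMtools 0.1.18, TopHat2 2.1.1 and Bowtie2 2.2.8. For the annotation, the strand setting, reads with several matches and the separation of mouse reads, the processing is not given in the sources used here.

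Counts were rounded and all 26364 genes entered edgeR 4.0.16 (R 4.3.3; filterByExpr on diet, TMM scaling, quasi-likelihood F-test, Benjamini-Hochberg adjustment over 10005 genes, threshold 0.05). One model gave each diet a mean (1 residual degree of freedom). Its spread came only from the methionine-free pair and was pooled over genes (infinite prior degrees of freedom). The difference of a single gene within the pair therefore hardly entered its interval or p-value. An additive model held methionine and tryptophan/niacin omission (2 residual degrees of freedom). Reported intervals and adjusted p-values of members come from these fits of the whole table. Diets with 1 library each were compared by size only. Levels per kb used median GENCODE 29 transcript lengths. List medians beside promoter matches and between single libraries are on the log2 CPM scale. Alternatives were total-count and DESeq2 size factors, no filter, DESeq2 1.42.0, limma-voom 3.58.1, a length correction, a prior count of 0.5, a 1.5-fold rule and leaving out each methionine-free library. The edgeR and size-rule steps were tested on simulated data. Values in every library are given for the methionyl and tryptophanyl enzymes, the scaffold subunits, EPRS and the 4 (cytosolic) or 3 (mitochondrial) highest and lowest members by fold change in methionine-free against normal and in each additive effect; other members are given by range or where a count names them. The members and lists were chosen with earlier results of these data known.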

Additional observations from a re-analysis of the deposited data

How the results depend on the processing

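Only the methionine-free diet has a second library, and mitochondrial members had a median of 19.5 counts per library. MARS2, NARS2 and EEF1E1 in the combined omission rest on 4 counts each. Under total-count scaling, DESeq2 size factors, no low-count filter, DESeq2, limma-voom and the length correction, 0 members passed in each of the 6 tested comparisons. With 1 methionine-free library left out the per-diet model has no residual degrees of freedom, and the size rule in place of a test gave 1 to 2 members in methionine-free against normal (2.99% to 13.6% of all genes), 2 in combined omission against methionine-free (3.87% to 15% of all genes) and 3 to 4 in the interaction (7.9% to 18.3% of all genes). A 1.5-fold rule gave 2 members in each of the 3 comparisons of single libraries (5.27% to 8.78% of all genes). Of the recomputed medians over 9 comparisons, 42 of the 66 mitochondrial and 3 of the 66 cytosolic values moved by more than the spread of the pair. That spread was 0.0036 for the mitochondrial and 0.10 for the cytosolic median on the log2 scale. The median difference between the replicates was only -0.0051 for the mitochondrial genes. The 2 counts thus rest on unlike yardsticks and cannot show which set was less stable. The length correction turned the log2 fold change of MARS to 0.0078 in methionine-free against normal and to -0.0075 for the tryptophan/niacin omission. Without the first methionine-free library that omission gave -0.055 for MARS and -0.011 for WARS, and without the second 0.013 and 0.082, while total-count scaling gave 0.015 for WARS in combined omission against methionine-free; the cause was not tested. No paired analysis was possible because only the methionine-free diet has 2 replicate numbers.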
